A study of Homo sapiens with 9 samples.

Results

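The genes of ferritin and cellular iron handling were followed in MDA-MB-231 cells, an established human triple-negative breast cancer line, that had survived erastin or RSL3. The set held 10 genes picked by name for their place in iron handling, of 58735 genes in the count tables, and each of the 10 passed the filter on low counts. The 3 groups were vehicle-treated cells (DMSO), erastin-R cells and RSL3-R cells, with 3 libraries each. Erastin blocks system xc-, the cystine importer, and RSL3 inhibits GPX4, the enzyme that reduces lipid peroxides. Both agents drive ferroptosis, an iron-dependent form of cell death, and the resistant cells were those left after exposure to rising amounts of the agent. Every group was the same line with no engineered allele, the labels give no dose or duration, and the resistant cells are survivors of a selection in 1 line. Resistant here means survivor: resistance itself is not measured in these data, and effects of the agent and of survival cannot be told apart. The labels do not say that the libraries came from separate cultures, so the p-values measure the spread between these libraries, which may be technical. In bulk libraries fewer cells of one kind and less RNA per cell cannot be told apart.

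Total counts ran from 15405102 to 17273464 per library, and 16188 genes passed the filter. Libraries of 1 group correlated at 0.986 to 0.992 on the log2 scale and libraries of different groups at 0.959 to 0.972. Erastin-R replicate 1 stood somewhat apart from the other erastin-R libraries and gives the lower of those within-group values. VIM, CD44, EGFR and MSN, genes this mesenchymal line expresses strongly, summed to between 3405 and 4036 CPM (reads scaled to library size) in the 9 libraries. ESR1, PGR, GATA3, CDH1 and EPCAM, which luminal breast cells express, summed to between 7.0 and 10.9 CPM, with PGR at 0 to 2 counts. Single markers were less even than the sums. Mean CPM in vehicle and RSL3-R was 1.14 and 3.44 for CDH1, 390.5 and 671.6 for EGFR, and 314.0 and 233.8 for CD44.

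Cells take up transferrin-bound iron through the transferrin receptor, reduce it in the endosome and pass it to the cytosol, where iron that is not used is stored inside ferritin, a shell of heavy and light subunits. The cargo receptor NCOA4 carries ferritin to the lysosome, which frees the iron again (ferritinophagy), and ferroportin exports iron from the cell. The RNA-binding proteins IRP1 and IRP2 read the labile iron pool: when iron is scarce they bind a hairpin, the iron-responsive element (IRE), which blocks translation of ferritin and ferroportin mRNA from the 5′ UTR and protects TFRC mRNA from decay through the 3′ UTR. Much of this control acts on protein output, which read counts do not measure.

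The hairpins are shown because they are the element that storage, uptake and export have in common. The GENCODE 29 transcripts (GRCh38) were searched on the sense strand for a C, any 5 bases, the loop CAGTGN, and 5 bases that pair with the 5 before the loop, with G-U pairs allowed. The 30 bases are printed with the 6 loop bases in capitals. The FTH1 match lies in the 5′ UTR at chr11:61967573-61967602 on the minus strand, in 7 of 8 coding transcripts. The FTL match lies in the 5′ UTR at chr19:48965335-48965364 on the plus strand, in its 1 coding transcript. The SLC40A1 match lies in the 5′ UTR at chr2:189580660-189580689 on the minus strand, in 1 of 5 coding transcripts. TFRC held 4 matches in its 3′ UTR on the minus strand, at chr3:196050978-196051007 (a), chr3:196050574-196050603 (b), chr3:196050509-196050538 (c) and chr3:196050462-196050491 (d), in 3 of 4 coding transcripts.
FTH1: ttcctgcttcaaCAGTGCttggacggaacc
FTL: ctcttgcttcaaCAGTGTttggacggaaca
SLC40A1: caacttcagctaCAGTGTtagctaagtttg
TFRC a: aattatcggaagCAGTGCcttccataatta
TFRC b: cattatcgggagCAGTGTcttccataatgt
TFRC c: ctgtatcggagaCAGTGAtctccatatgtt
TFRC d: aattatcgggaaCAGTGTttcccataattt
The FTH1 and FTL stretches are identical at 26 of 30 positions, and the TFRC stretches match each other at 19 to 25 positions. Such a match stood in a UTR of 163 of 19684 coding genes (0.828%), and in 4 of the 10 genes described here. The 10 were picked by name, with genes known for this hairpin among them, so these shares are not a test. A match is a description of the letters only, and no match in SLC11A2 says only that this strict pattern was not found there.

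The first comparisons ask how the stores, the entry and the exit of iron differ between each resistant group and vehicle, at the level of mRNA. Both ferritin subunits were higher in each resistant group, far more so in erastin-R cells, and TFRC was lower in each, more so in RSL3-R cells. The other import genes did not move as one: SLC11A2 and SLC39A14 rose and STEAP3 fell. Ferroportin (SLC40A1) was low everywhere and fell in both groups. A gene is said to have risen or fallen where edgeR's quasi-likelihood test gave a Benjamini-Hochberg adjusted p under 0.05 over all 16188 genes. By that rule 9 of the 10 genes changed in erastin-R against vehicle, 5 up and 4 down, beside 54.0% of all genes tested, 27.1% up and 26.8% down. In RSL3-R against vehicle 8 of the 10 changed, 5 up and 3 down, beside 48.7% of all genes, 23.8% up and 24.9% down. With a 2-fold change required as well, which is the threshold for differential expression in this study, the count was 4 of 10 in erastin-R (FTH1 and FTL up, STEAP3 and SLC40A1 down) beside 13.4% of all genes, 6.7% up and 6.66% down. In RSL3-R it was 2 of 10 (TFRC and SLC40A1 down) beside 10.1%, 6.02% up and 4.08% down. STEAP3 and SLC40A1 lay on the 2-fold line. The erastin-R count was 2 without erastin-R replicate 1, and the RSL3-R count was 1 without vehicle replicate 3 or without RSL3-R replicate 2. The log2 fold changes of the 10 genes had a median of 0.27 (erastin-R) and 0.12 (RSL3-R), against -0.0042 and 0.0052 over all genes. Without erastin-R replicate 1, the library that stood apart, the log2 fold changes in erastin-R were 2.25 for FTH1, 1.51 for FTL, -0.62 for TFRC, 0.56 for SLC11A2, 0.63 for SLC39A14, -0.97 for STEAP3, -0.93 for SLC40A1, -0.41 for NCOA4 and 0.56 for ACO1, and all 9 still passed the test. Of the 16619 genes in that fit, 4917 rose and 5040 fell. The comparisons with vehicle share the vehicle libraries, so their values are set side by side and are not independent of each other.

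**Figure D1:**
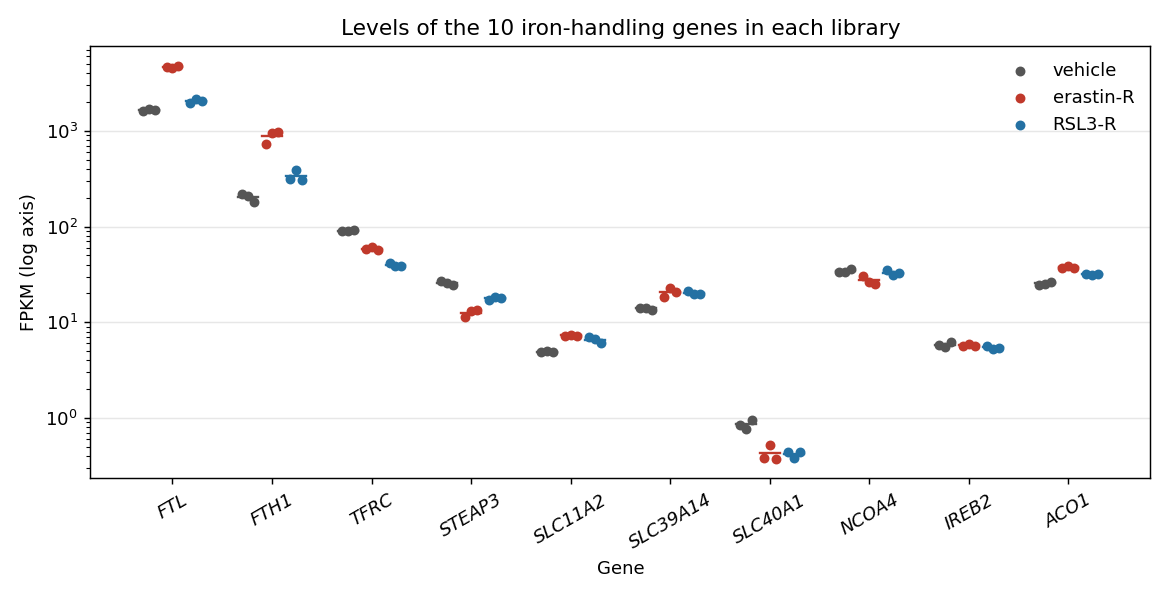
FPKM of the 10 genes in each of the 9 libraries on a log axis, with points for libraries and short lines for group means. The ferritin subunits stand highest in every group, with FTL at a mean of 1649 in vehicle and 4701 in erastin-R, and SLC40A1 stands lowest, at means of 0.855, 0.425 and 0.423 in vehicle, erastin-R and RSL3-R.

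Iron storage was examined first. FTH1 (ENSG00000167996, chr11:61959718-61967660, minus strand, GENCODE 29 on GRCh38) encodes the ferritin heavy chain, whose ferroxidase site oxidises iron for storage. FTH1 was counted at 7627, 6914 and 6006 reads in the vehicle libraries, at 25398, 30919 and 32913 in erastin-R, and at 10069, 12888 and 10823 in RSL3-R. The lowest erastin-R library lay well above the highest RSL3-R library, and the lowest RSL3-R library lay above the highest vehicle library. On the CPM scale this was 417.4 ± 42.9 in vehicle, 1827 ± 273 in erastin-R and 694.2 ± 92.8 in RSL3-R (SD, n = 3 each). FTH1 rose 4.38-fold in erastin-R (log2 fold change 2.13, SE 0.12, adjusted p = 7.59e-09 by edgeR's quasi-likelihood test). In RSL3-R it rose 1.66-fold (log2 0.73, SE 0.11, adjusted p = 1.15e-04, same test).

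FTL (ENSG00000087086, chr19:48965301-48966878, plus strand) encodes the light chain, which has no ferroxidase site and aids the formation of the iron core. Its counts were 24198, 24164 and 23564 in vehicle, 70516, 64285 and 70233 in erastin-R, and 27198, 30516 and 31079 in RSL3-R. The order of the groups was that of FTH1, with no overlap, but the RSL3-R libraries stood only slightly above vehicle. FTL rose 2.86-fold in erastin-R (log2 1.52, SE 0.05, adjusted p = 2.58e-10, edgeR) and 1.25-fold in RSL3-R (log2 0.32, SE 0.05, adjusted p = 1.64e-04). The chains did not rise in proportion. The ratio of FTL to FTH1 in FPKM, a per-length scale, was 7.34, 8.08 and 9.07 in vehicle, 6.42, 4.81 and 4.93 in erastin-R, and 6.25, 5.47 and 6.64 in RSL3-R. It was lower in each resistant library than in any vehicle library, and the difference in this ratio was not tested.

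The ferritin genes are known for processed pseudogenes, and the read counts bear on how much of the FTH1 signal is unambiguous. Of the 2398 distinct 50-base words in FTH1 transcripts, 477 (19.9%) also occurred in transcripts of 16 genes elsewhere in the annotation, and of the 829 in FTL, 152 (18.3%) occurred in 2 other genes. With words of 100 bases the shares were 8.23% and 3.34%. In the principal FTH1 transcript 98.7% of the coding bases and 31.0% of the 3′ UTR lay in such words, and none of the 5′ UTR. In FTL it was 66.3% of the coding bases and none of either UTR. Reads that fit several places equally were left out of the counts, which held uniquely mapped reads, so reads from those stretches can be missing from the counts of either gene, and how many are was not tested. Copies in the genome that the annotation does not give as transcripts were not searched. Of the other 8 genes, NCOA4 shared 4.53% of its 50-base words with genes elsewhere, the pseudogenes NCOA4P3 and NCOA4P4, which had 0 counts. The rest shared at most 2.13% with genes elsewhere, and STEAP3 shared 9.83% with STEAP3-AS1, which overlaps it.

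The annotation names 25 FTH1 pseudogenes, 19 of which had a count in some library, and 16 FTL pseudogenes, 5 of which had one. The FTH1 pseudogenes together took 87, 147 and 99 reads in vehicle, 418, 1083 and 1128 in erastin-R, and 226, 169 and 237 in RSL3-R. That was 1.13 to 2.08% of the reads of FTH1 and its pseudogenes in vehicle, 1.62 to 3.38% in erastin-R and 1.29 to 2.20% in RSL3-R. The FTL pseudogenes took 8 to 31 reads per library. Of the 5 pseudogenes with enough reads to test, all rose in erastin-R, beside 27.1% of all genes tested. Their log2 fold changes there were 3.67 (FTH1P7), 3.46 (FTH1P23), 2.65 (FTH1P8), 2.44 (FTH1P2) and 1.60 (FTLP3). In RSL3-R FTH1P7 (log2 1.40, adjusted p = 0.0400) and FTH1P2 (log2 0.76, adjusted p = 0.0368) rose and the other 3 did not pass edgeR's test. Of all genes tested, 23.8% rose in RSL3-R. A gene can pass the filter through the group where it is high, so these folds and the counts that rose describe only those 5. Whether those reads were transcribed from the pseudogenes or from the parent genes cannot be told apart in these counts. With the pseudogene reads added to the parent gene, the log2 fold changes of FTH1 were 2.15 in erastin-R and 0.74 in RSL3-R, and those of FTL were 1.52 and 0.32. The exons of BEST1, a chloride channel gene on the opposite strand, cover 1267 bases (62.4%) of the FTH1 exons, and the strand setting of the counting is not given in the sources used here. BEST1 itself had 13 to 33 counts per library. If the counting ignored strand, reads in the shared exons fit both genes and may be missing from the counts of either. How many are was not tested, so the FTH1 level and the ratio of FTL to FTH1 carry this limit.

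**Figure D2:**
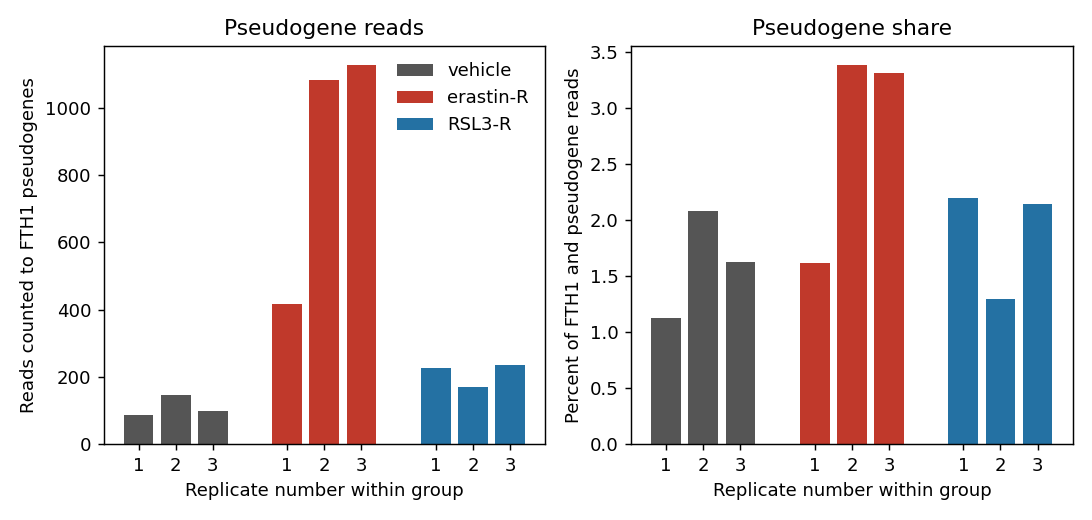
Reads counted to the 25 annotated FTH1 pseudogenes in each library (left) and their percent of the reads of FTH1 plus its pseudogenes (right), with bars for the 3 libraries of each group. The share stayed at or below 3.38% in all 9 libraries, and erastin-R replicate 1 lay below the other erastin-R libraries on both axes.

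Uptake was examined next. TFRC (ENSG00000072274, chr3:196027183-196082189, minus strand) encodes transferrin receptor 1, the main entry route for transferrin-bound iron. It was counted at 12113, 11582 and 11829 reads in vehicle, at 7948, 7627 and 7512 in erastin-R, and at 5091, 5017 and 5254 in RSL3-R. The groups did not overlap, and the spread within each was small, with CPM of 722.4 ± 7.19, 471.8 ± 14.4 and 315.7 ± 11.1 (SD, n = 3). TFRC fell in erastin-R to a level 1.53-fold lower than in vehicle (log2 -0.61, SE 0.05, adjusted p = 4.16e-07, edgeR). It fell further in RSL3-R, to a level 2.29-fold lower (log2 -1.19, SE 0.05, adjusted p = 7.31e-10). The 4 TFRC hairpins printed above lie in the 3′ UTR, whose bases were counted with the rest of the exons.

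STEAP3 (ENSG00000115107, chr2:119223831-119265652, plus strand) encodes the ferrireductase that converts transferrin-derived iron in the endosome to the ferrous form. It had 2104, 1925 and 1848 reads in vehicle, 889, 957 and 1009 in erastin-R, and 1228, 1359 and 1420 in RSL3-R. Unlike TFRC, it was lowest in erastin-R, and the groups did not overlap. STEAP3 fell in erastin-R (log2 -1.03, SE 0.07, adjusted p = 6.14e-08) and in RSL3-R (log2 -0.54, SE 0.07, adjusted p = 2.57e-05, both edgeR). Exons of STEAP3-AS1 on the opposite strand cover 11.0% of its exons, and that gene had 4 to 9 counts per library.

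SLC11A2 (ENSG00000110911, chr12:50979401-51028566, minus strand) encodes DMT1, which moves ferrous iron out of the endosome. It had 837, 836 and 817 reads in vehicle, 1259, 1201 and 1206 in erastin-R, and 1112, 1091 and 1066 in RSL3-R. It rose in erastin-R (log2 0.56, SE 0.07, adjusted p = 1.0e-05) and in RSL3-R (log2 0.41, SE 0.07, adjusted p = 2.09e-04, both edgeR). SLC39A14 (ENSG00000104635) encodes ZIP14, an importer of iron that is not bound to transferrin. It had 1678, 1604 and 1542 reads in vehicle, 2161, 2513 and 2369 in erastin-R, and 2324, 2241 and 2376 in RSL3-R. Its resistant groups overlapped each other and both lay above vehicle. SLC39A14 rose by nearly the same amount in erastin-R (log2 0.56, SE 0.08, adjusted p = 3.01e-05) and RSL3-R (log2 0.54, SE 0.08, adjusted p = 4.50e-05, both edgeR).

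**Figure D3:**
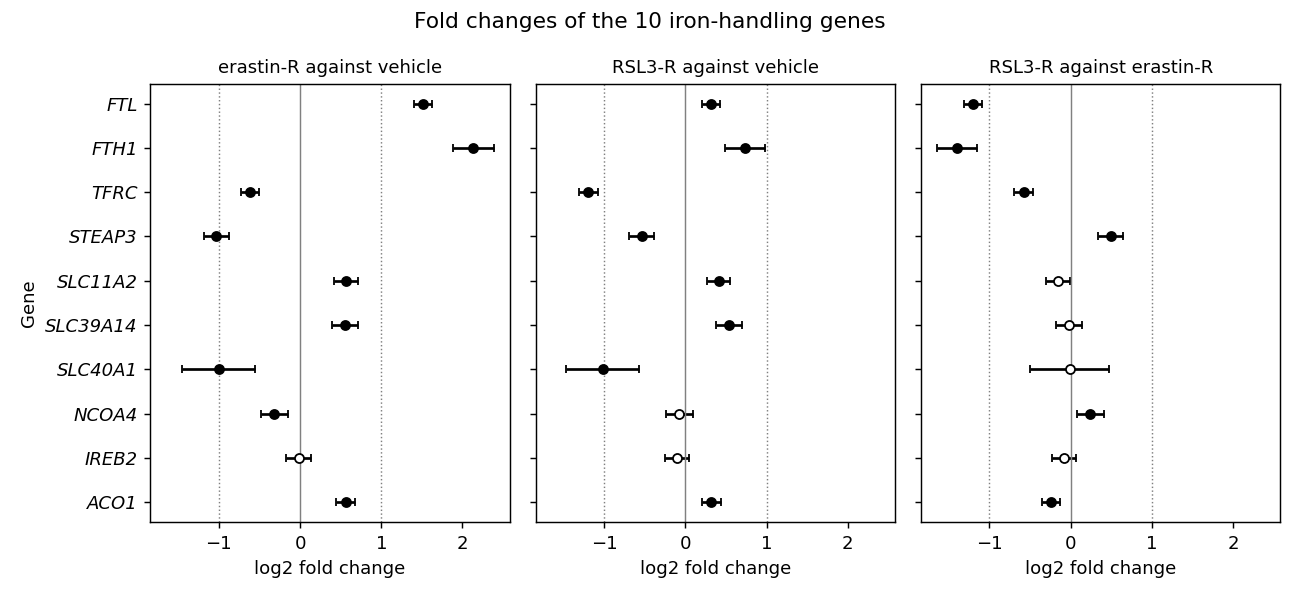
Log2 fold changes of the 10 genes in the 3 comparisons, with 95% confidence intervals from the model over 9 libraries, filled where the adjusted p was under 0.05, and dotted lines at a 2-fold change. FTH1 at 2.13 and FTL at 1.52 lead the erastin-R panel, and TFRC at -1.19 leads the falls in the RSL3-R panel.

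Storage and uptake together set the resistant groups apart from vehicle and from each other. The summed CPM of FTH1 and FTL was 2.63, 2.68 and 2.50 times that of TFRC in the vehicle libraries. The same ratio was 12.1, 12.5 and 13.7 in erastin-R and 7.32, 8.65 and 7.98 in RSL3-R. The ratio was thus higher in every resistant library, in erastin-R mainly through the ferritin genes and in RSL3-R mainly through TFRC, which is the same contrast that the values above give and not a separate test of it.

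**Figure D4:**
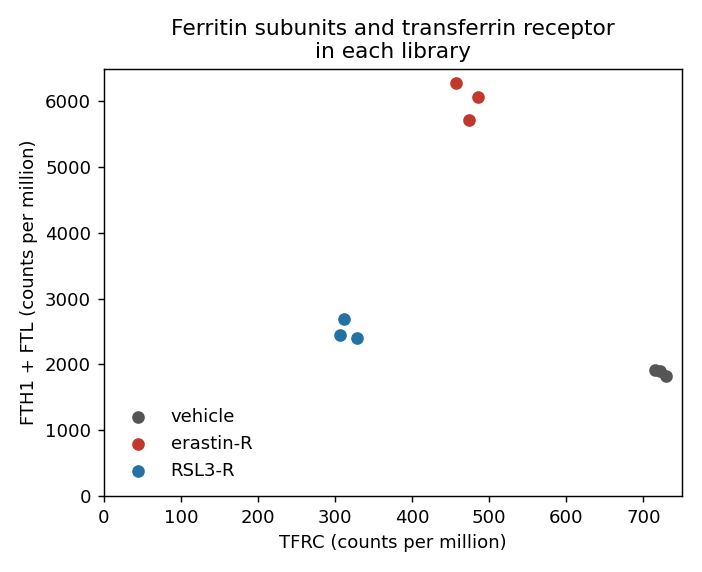
Summed CPM of FTH1 and FTL against the CPM of TFRC, 1 point per library, both axes from 0. Vehicle libraries sit at the lower right (ferritin 1824 to 1919), erastin-R libraries at the top (5712 to 6270), and RSL3-R libraries at the lower left of the 3 groups (2403 to 2698) with the lowest TFRC.

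The export gene among the 10 was low in all groups. SLC40A1 (ENSG00000138449, chr2:189560579-189583758, minus strand) encodes ferroportin, and it had 62, 55 and 67 reads in vehicle, 28, 36 and 27 in erastin-R, and 30, 27 and 33 in RSL3-R. Both resistant groups lay below vehicle and overlapped each other. SLC40A1 fell in erastin-R (log2 -1.0, SE 0.21, adjusted p = 0.00108) and in RSL3-R (log2 -1.02, SE 0.21, adjusted p = 0.00118, both edgeR), with the widest errors of the 10 genes.

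Ferritinophagy was represented by NCOA4 (ENSG00000266412, chr10:46005088-46030714, minus strand). It had 2315, 2261 and 2405 reads in vehicle, 2147, 1730 and 1719 in erastin-R, and 2218, 2073 and 2275 in RSL3-R. It fell slightly in erastin-R (log2 -0.31, SE 0.08, adjusted p = 0.00313, edgeR). In RSL3-R its ranges overlapped those of vehicle, with a log2 difference of -0.07 and a 95% confidence interval of -0.24 to 0.09 (adjusted p = 0.449, edgeR). The gene that delivers ferritin for breakdown thus did not follow the ferritin genes upward in either group.

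The iron regulatory proteins behaved differently from each other. ACO1 (ENSG00000122729, chr9:32384603-32454769, plus strand) encodes IRP1, which serves as cytosolic aconitase when it carries an iron-sulfur cluster and binds IREs when it does not. Its counts were 3181, 3139 and 3259 in vehicle, 4813, 4621 and 4623 in erastin-R, and 3780, 3868 and 4198 in RSL3-R, with no overlap between groups. ACO1 rose in erastin-R (log2 0.56, SE 0.05, adjusted p = 1.01e-06) and in RSL3-R (log2 0.32, SE 0.05, adjusted p = 1.93e-04, both edgeR). IREB2 (ENSG00000136381, chr15:78437431-78501456, plus strand) encodes IRP2, which is removed by the proteasome when iron is plentiful. Its counts were 1056, 970 and 1099 in vehicle, 1036, 1022 and 1012 in erastin-R, and 966, 922 and 1000 in RSL3-R. All 3 groups overlapped. The log2 differences of IREB2 from vehicle were -0.02 in erastin-R (95% confidence interval -0.17 to 0.13, adjusted p = 0.839) and -0.10 in RSL3-R (-0.25 to 0.05, adjusted p = 0.258, both edgeR). The ACO1 to IREB2 ratio in FPKM was 4.24 to 4.63 in vehicle, 6.47 to 6.64 in erastin-R and 5.60 to 6.0 in RSL3-R.

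The resistant groups were then compared directly. RSL3-R differed from erastin-R in 6 of the 10 genes, 2 higher and 4 lower, beside 49.2% of all genes tested, 22.3% higher and 26.9% lower. The ferritin genes differed most: FTH1 was 2.63-fold lower in RSL3-R (log2 -1.40, SE 0.11, adjusted p = 5.16e-07) and FTL 2.30-fold lower (log2 -1.20, SE 0.05, adjusted p = 1.92e-09, both edgeR). These were also the only members past 2-fold, 2 of 10 beside 10.3% of all genes, 6.86% higher and 3.48% lower. TFRC (log2 -0.58, adjusted p = 1.30e-06) and ACO1 (log2 -0.24, adjusted p = 0.00176) were lower in RSL3-R as well by the same test. STEAP3 was higher in RSL3-R (log2 0.49, adjusted p = 7.62e-05), and so was NCOA4 (log2 0.24, adjusted p = 0.0176). The NCOA4 call was lost without erastin-R replicate 2 (adjusted p = 0.0639) or replicate 3 (adjusted p = 0.0896). SLC11A2 missed the threshold although its CPM ranges did not overlap (log2 -0.16, adjusted p = 0.0688), and it passed without erastin-R replicate 1 (adjusted p = 0.0403). For SLC39A14 the interval of the log2 difference was -0.18 to 0.14, for SLC40A1 it was -0.50 to 0.48 and for IREB2 -0.23 to 0.07.

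On the FPKM scale the order of the genes was led in every group by FTL, then FTH1, then TFRC. In vehicle NCOA4 followed, then STEAP3 and ACO1 at 25.9 ± 1.20 and 25.5 ± 0.804, whose ranges overlapped, then SLC39A14, IREB2, SLC11A2 and SLC40A1. In erastin-R ACO1 came next after TFRC at 37.5 ± 0.776, above NCOA4 at 27.6 ± 2.83, and STEAP3 had moved below SLC39A14. In RSL3-R NCOA4 and ACO1 overlapped at 32.8 ± 1.77 and 31.9 ± 0.395. SLC11A2 stood above IREB2 in both resistant groups and below it in vehicle. FTH1 is placed by its merged exon length, most of which is the stretch shared with BEST1, and any reads lost there would lower its FPKM.

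The genes with the pattern most like FTH1 over the 9 libraries, by Pearson's r on log2 CPM among 12970 protein-coding genes, were BET1L (r = 0.997), POFUT2 (0.997) and EML2 (0.995). FTL followed FTH1 at r = 0.976 and ACO1 at 0.936, and STEAP3 and NCOA4 ran opposite to it at -0.927 and -0.912. The genes most like TFRC were RACGAP1 (0.997), CDCA2 (0.996) and TRERF1 (0.995), and RACGAP1 and CDCA2 have known roles in cell division. SLC40A1 was nearest to TFRC among the 10 genes, at 0.845. These points are 9 libraries in 3 groups, so each r mostly describes the order and spacing of 3 group means.

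A further 49 genes of iron metabolism, listed by role, gave the background of the pathway, and 41 of them passed the filter. In erastin-R 13 of the 41 rose and 11 fell, and in RSL3-R 13 rose and 16 fell, to be read beside the shares of all genes given above. Their median log2 fold changes were 0.10 and -0.07. Not tested for too few reads were TF at 0 to 14 counts, LTF, HAMP, HEPH, HEPHL1, BOLA2, and SLC22A17 and FTMT, which had 0 counts in every library. The transcripts of mitochondrial ferritin (FTMT) and hepcidin (HAMP, at most 1 count) were thus at or near 0.

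Among the 10 tested genes of transferrin uptake, iron reduction and other import, 2 rose and 3 fell in erastin-R, and 4 rose and 5 fell in RSL3-R. Of all genes tested, 27.1% rose and 26.8% fell in erastin-R, and 23.8% rose and 24.9% fell in RSL3-R. LCN2, a siderophore-binding lipocalin, rose in RSL3-R (log2 2.10, adjusted p = 6.75e-06, edgeR) from a low level, 1.49 to 6.37 CPM. Its log2 difference in erastin-R was 0.50 (adjusted p = 0.132). MCOLN1, the lysosomal channel that can release iron, fell in both (log2 -0.76 and -0.57). STEAP4, a ferrireductase, rose in erastin-R (log2 1.25, adjusted p = 0.0138, edgeR), and TFR2, the second transferrin receptor, fell in RSL3-R (log2 -1.25, adjusted p = 0.0191, edgeR), each from few reads (8 to 33 counts per library for STEAP4 and 7 to 40 for TFR2). Of the 2 tested export genes, CP (ceruloplasmin) fell in erastin-R (log2 -1.68, adjusted p = 0.0182) and PROM2 (prominin-2) in RSL3-R (log2 -0.86, adjusted p = 0.0176, both edgeR). Neither passed in the other group, with log2 differences of -0.26 for CP in RSL3-R and 0.04 for PROM2 in erastin-R. PROM2 had only 19 to 58 counts per library. Opposite-strand exons of HPS3, with 1762 to 2445 counts, cover 19.4% of the CP exons, and CP itself had 4 to 28 counts per library.

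Of the 5 genes listed under turnover of IRP2 and NCOA4, 3 rose in erastin-R (FBXL5, CIAO1 and CIAO3) and 2 in RSL3-R (FBXL5 and TAX1BP1). Of all genes tested, 27.1% and 23.8% rose. None of the 5, which also include HERC2, fell, beside 26.8% and 24.9% of all genes. FBXL5, the iron-sensing ligase subunit that marks IRP2 for degradation, rose from 73.5 CPM in vehicle to 140.6 in erastin-R (log2 0.94, adjusted p = 2.26e-08) and 131.5 in RSL3-R (log2 0.84, adjusted p = 5.64e-08, both edgeR). The mRNA of its target, IREB2, did not pass the test in either group. Among the 3 tested storage and chaperone genes, GLRX3, a cytosolic glutaredoxin, rose in erastin-R (log2 0.41), PCBP2, an iron chaperone, rose in both (0.17 and 0.18), and PCBP1, its close relative, fell in RSL3-R (-0.44). Opposite-strand exons of PCBP1-AS1 cover 52.2% of PCBP1, with 78 to 160 counts.

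The 16 genes of mitochondrial iron import and iron-sulfur clusters were mixed, with 4 up and 6 down in erastin-R and 3 up and 8 down in RSL3-R. The shares over all genes were 27.1% up and 26.8% down in erastin-R, and 23.8% up and 24.9% down in RSL3-R. SLC25A37 (mitoferrin-1), which imports iron into mitochondria, rose in erastin-R (log2 0.39, adjusted p = 7.82e-05) and in RSL3-R (log2 1.0, adjusted p = 1.15e-08, both edgeR). ISCU, the scaffold on which clusters are built, rose in both (log2 0.87 and 0.69). IBA57 fell in both (-1.08 and -0.86), as did BOLA3 (-0.54 and -1.20), and both act late in cluster assembly. Of the 5 other transcripts with a known IRE, 2 rose and 1 fell in erastin-R and 3 rose and 1 fell in RSL3-R, to be read beside the same shares. ALAS2, the erythroid enzyme of the first step of heme synthesis, rose from 8 to 20 counts in vehicle to 39 to 74 in erastin-R (log2 2.12, adjusted p = 1.29e-04) and 38 to 43 in RSL3-R (log2 1.73, adjusted p = 0.00102, both edgeR). CDC14A fell in erastin-R (log2 -0.33).

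**Figure D5:**
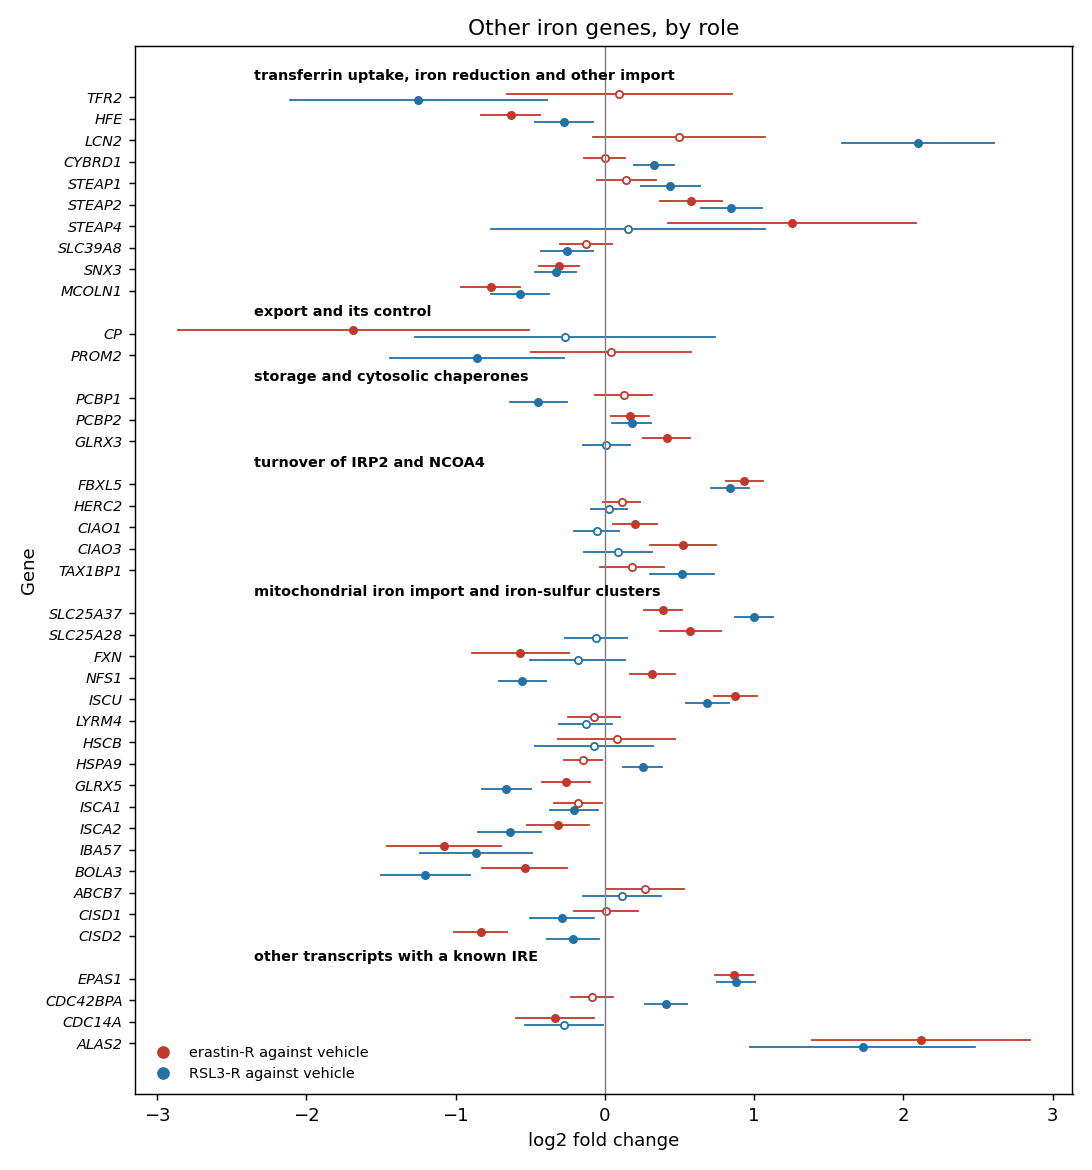
Log2 fold changes of 40 of the 41 tested iron genes outside the 10, grouped by role, with 95% confidence intervals, red for erastin-R and blue for RSL3-R against vehicle, and filled points for an adjusted p under 0.05. No role moved one way throughout in both groups, and FBXL5 stands at 0.94 in erastin-R and 0.84 in RSL3-R.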

How the data were processed

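RNA from the 9 samples was poly(A)-selected and sequenced. The deposited counts were made by the authors with HISAT2 2.0.5 and featureCounts 1.5.0-p3, per the labels, from uniquely mapped reads over exons. The deposited FPKM values were made by the authors from the same counts and exon lengths, and were used for levels and ratios between genes and for the plot of levels by group, not for tests. All 58735 gene IDs and positions matched GENCODE 29 (GRCh38), from which the sequences were read.

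Counts were tested with edgeR 4.0.16 (R 4.3.3) in 1 quasi-likelihood model of the 9 libraries after TMM scaling and filterByExpr, with Benjamini-Hochberg adjustment over 16188 genes. The code was tested on simulated data. CPM used TMM-scaled library sizes. Intervals for fold changes came from the model. Alternatives were DESeq2 1.42.0, no filter, quantile normalization with limma 3.58.1, 2-group fits, a replicate block, each library left out, and pseudogene reads added to the parent gene, the last chosen after seeing the data. The 10 genes and the list of 49 were chosen with earlier results of these data known. Of the 49, the text gives fold changes for those past 2-fold. It gives them too for the largest rise and fall that passed the test in each role and comparison with vehicle. The 3 genes most correlated with FTH1 and with TFRC are also named. The result of 1 gene on the list of 49 is not reported here by name. Precision is limited by 3 libraries per group and 15405102 to 17273464 counts per library.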

Additional observations from a re-analysis of the deposited data

Results flagged for a closer look

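FTH1 and FTL were singled out because they differed between the resistant groups past an adjusted p of 0.05 and a 2-fold change. This was a direct test within the model. TFRC, STEAP3, ACO1 and NCOA4 also passed that test, by less than 2-fold. FTH1 was lower in RSL3-R than in erastin-R by a log2 difference of -1.40 (adjusted p = 5.16e-07), and FTL by -1.20 (adjusted p = 1.92e-09, both edgeR's quasi-likelihood test with Benjamini-Hochberg adjustment). For each gene, 0 of 9 pairs of an RSL3-R and an erastin-R library had the higher value in RSL3-R. The p-values and this count come from the values by which the genes were picked, and are not separate support. No library was tested as standing apart within its group, since groups of 3 are too small for that.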

How the results depend on the processing

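Under the alternatives 10 log2 differences turned sign, 2 calls were lost, 1 was gained and 3 counts of members moved by more than 1.5 times. The other 500 values did none of these, though some counts moved by less, such as 5 to 7 members passing in RSL3-R against erastin-R. With libraries left out in turn, the number of members past 2-fold ran from 2 to 4 in erastin-R and from 1 to 2 in RSL3-R, both against vehicle. For RSL3-R against erastin-R, the log2 difference of SLC11A2 ran from -0.18 to -0.066, that of NCOA4 from 0.18 to 0.33, that of SLC39A14 from -0.093 to 0.062, that of SLC40A1 from -0.10 to 0.16, and that of IREB2 in erastin-R against vehicle from -0.063 to 0.026. The sign also turned for SLC39A14 under quantile normalization (0.068) and the 2-group fit (0.023), for SLC40A1 under the 2-group fit (0.026), and for IREB2 under quantile normalization (0.018), all between the resistant groups and none past the threshold. The cause was not tested.

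Replicate numbers did not pair the libraries: deviations from the group means correlated at a mean of -0.0049 for the same number and 0.0026 for different numbers. With the replicate block, 9, 8 and 6 members passed in the 3 comparisons, and no call on a member changed. Of all 16188 genes in that fit, 4229 rose and 4209 fell in erastin-R against vehicle. In RSL3-R against vehicle 3656 rose and 3852 fell. In RSL3-R against erastin-R 3494 were higher and 4120 lower. SLC40A1 rests on 27 to 67 reads per library, and exclusion of reads with several matches limits FTH1 and FTL counts. The overlap with BEST1 may limit FTH1 counts further if the counting ignored strand.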
